A study of Sus scrofa with 8 samples.

Results

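Glucose enters cells through transporters of the SLC2A family and is broken down in the cytosol by the enzymes of glycolysis to pyruvate and lactate. This route was followed in pig blood through 4 of the 1922 genes with a named probe, namely the transporter gene SLC2A1, the regulator gene HIF1A and the enzyme genes PFKFB4 and PGAM1. Their probes were taken from the gene name column of the arrays or from the gene symbol or full gene name in the probe description. That gave 7 probes, of 43603 on the array, for 3 of the genes. PFKFB4 stands in its probe's description as a bare symbol without parentheses, so that probe lies outside the strict wording of the rule. It was added, which made 8 probes. A probe was tested where the scanner called it well above background on 4 or more arrays, which kept 7 of these 8 and 17352 in all.

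The samples were whole blood of 8 female Clawn miniature pigs, 8 to 9 months old, with 1 array per animal. Of the pigs, 4 were on a diet of standard dry feed, water and shochu distilled water (SDW) mixed 1:1:1 by weight, and 4 control pigs were on standard dry feed. SDW, as its name says, comes from the distillation of the Japanese spirit shochu. The control diet is labelled as dry feed alone, so added water and added SDW cannot be told apart in this design. Feeding lasted 12 weeks by the series' design text, but each animal's own description states 14, 15, 16 or 17 weeks (replicates 1, 2, 3 and 4 of either diet). Blood was preserved in PAXgene tubes and Cy3-labelled RNA copies were hybridised on Agilent 1-colour arrays.

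Levels are log2 of the scanner's processed signal minus the 75th percentile of the array, so a level of 0 is the 75th percentile. That percentile was between 39.9 and 73.1 signal units, and the share of probes well above background ran from 35.2% to 43.5%. The arrays lay on 3 slides, each of which held both diets. Slide 1 held SDW 2, SDW 3 and control 3, slide 2 held SDW 1, control 2 and control 4, and slide 3, scanned on a second day, held SDW 4 and control 1. The number of arrays limits the precision of every value below. Between the diets, 0 of the 17352 probes had an adjusted p below 0.05 by limma with Benjamini-Hochberg adjustment (0.0%), and 251 had an unadjusted p below 0.05 (1.45%).

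As background, SLC2A1 encodes GLUT1, the transporter that brings glucose into human red cells and into many other cell types at rest. HIF1A encodes the oxygen-regulated subunit of the transcription factor HIF-1, which in human and mouse cells is controlled largely by breakdown of the protein and which raises transcription of transporter and glycolytic genes. PFKFB4 makes and removes fructose 2,6-bisphosphate, the activator of phosphofructokinase, and PGAM1 is the mutase that turns 3-phosphoglycerate into 2-phosphoglycerate late in glycolysis.

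Which RNA each value refers to is set by the probe, so the designed sequences are shown first. Each is 60 bases long, written 5′ to 3′ as in the scanner files. Capitals mark the run of 38 bases that 2 PGAM1 probes share.
SLC2A1: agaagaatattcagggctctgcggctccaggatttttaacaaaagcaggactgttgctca
HIF1A pig mRNA probe: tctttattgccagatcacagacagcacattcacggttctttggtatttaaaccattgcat
HIF1A similarity probe: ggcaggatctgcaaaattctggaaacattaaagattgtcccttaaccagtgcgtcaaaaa
PFKFB4: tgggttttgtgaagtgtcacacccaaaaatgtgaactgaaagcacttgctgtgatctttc
PGAM1 probe A: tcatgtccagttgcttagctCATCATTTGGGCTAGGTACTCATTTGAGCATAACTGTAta
PGAM1 probe B: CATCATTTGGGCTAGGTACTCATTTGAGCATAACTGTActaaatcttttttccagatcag

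The HIF1A sequences have no base run in common longer than 5 bases, and they are named on unequal grounds. The pig mRNA probe was designed on a pig HIF1A transcript and starts at base 2799 of it. The similarity probe was designed on an assembled pig transcript whose description names HIF1A through a match to 4% of a rainbow trout HIF1A protein. PGAM1 probes A and B overlap, so they read the same stretch of RNA and are no independent measurements. PGAM1 probe C shares at most 8 bases in a row with probe A. PGAM1 probe A is named through a match to 45% of a human PGAM1 protein, and probes B and C through the full gene name in their descriptions. PGAM1 probe D is named through a match to 85% of a zebrafish PGAM1 protein. The PFKFB4 probe is named through a match to 96% of a human PFKFB4 protein. No genome position is given here, since the files name no genome build for the probes.

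SLC2A1, the transporter gene, was detected in every animal and did not pass the test between the diets. Its level was -0.80, -1.32, -1.01 and -0.15 in SDW 1 to 4, against -0.90, -1.83, -1.17 and -0.87 in control 1 to 4. The highest level was in SDW 4 and the lowest in control 2, and the diets overlapped, with 2 SDW animals above the highest control. The mean was -0.82 ± 0.50 on SDW and -1.19 ± 0.45 on the control diet (SD, n = 4 each). The difference of 0.37 (SE 0.32, log2, 1.29-fold) had an unadjusted p of 0.277 and an adjusted p of 1.00 by limma.

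Within slides 1, 2 and 3 the SLC2A1 difference was 0.00, 0.55 and 0.75, and without the arrays of slide 3 it was 0.24. Leaving out SDW 4 gave 0.15, the lowest, and leaving out SDW 2 gave 0.54, the highest. SLC2A1 was dim, with processed signals from 14.2 to 36.1 and a scanner error of 12.0% to 20.6% of the signal. With normexp background correction, which adds an offset of 50 and so compresses dim probes, the difference was 0.06. Over all tested probes, 79.9% had a smaller difference in size than SLC2A1.

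HIF1A, the regulator gene, had a probe pair that did not move together across animals, and neither passed the test between the diets. The pig mRNA probe was at -1.72, -0.98, -1.15 and -1.73 in SDW 1 to 4, against -2.49, -1.95, -1.70 and -0.85 in control 1 to 4. The SDW values lay inside the range of the controls, whose lowest and highest values were those of control 1 and control 4. It was well above background in 4 of 4 SDW animals and 3 of 4 controls, with control 1 the exception. The mean was -1.39 ± 0.39 on SDW and -1.75 ± 0.68 on the control diet (SD, n = 4 each), a difference of 0.35 (SE 0.36, unadjusted p = 0.348, adjusted p = 1.00 by limma).

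The pig mRNA probe's difference depended on single control animals, at 0.11 without control 1 and 0.65 without control 4. Within slides 1, 2 and 3 it was 0.63, -0.31 and 0.76, and without slide 3 it was 0.22. Its processed signal was from 9.82 to 37.1, its scanner error reached 48.6% of the signal, and with normexp the difference was 0.01.

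The HIF1A similarity probe was bright on every array. Its level was 2.87, 2.60, 3.41 and 3.27 in SDW 1 to 4, against 3.30, 2.99, 3.40 and 2.75 in control 1 to 4. The diets covered nearly the same range, from SDW 2 at the low end to SDW 3 and control 3 at the high end. The mean was 3.04 ± 0.37 on SDW and 3.11 ± 0.30 on the control diet (SD, n = 4 each), a difference of -0.07 (SE 0.26, unadjusted p = 0.789, adjusted p = 1.00 by limma). Within slides 1, 2 and 3 it was -0.40, 0.00 and -0.03. Across the 8 arrays the HIF1A probes had a Pearson correlation of -0.49 and a Spearman correlation of -0.36, given as a description.

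**Figure D1:**
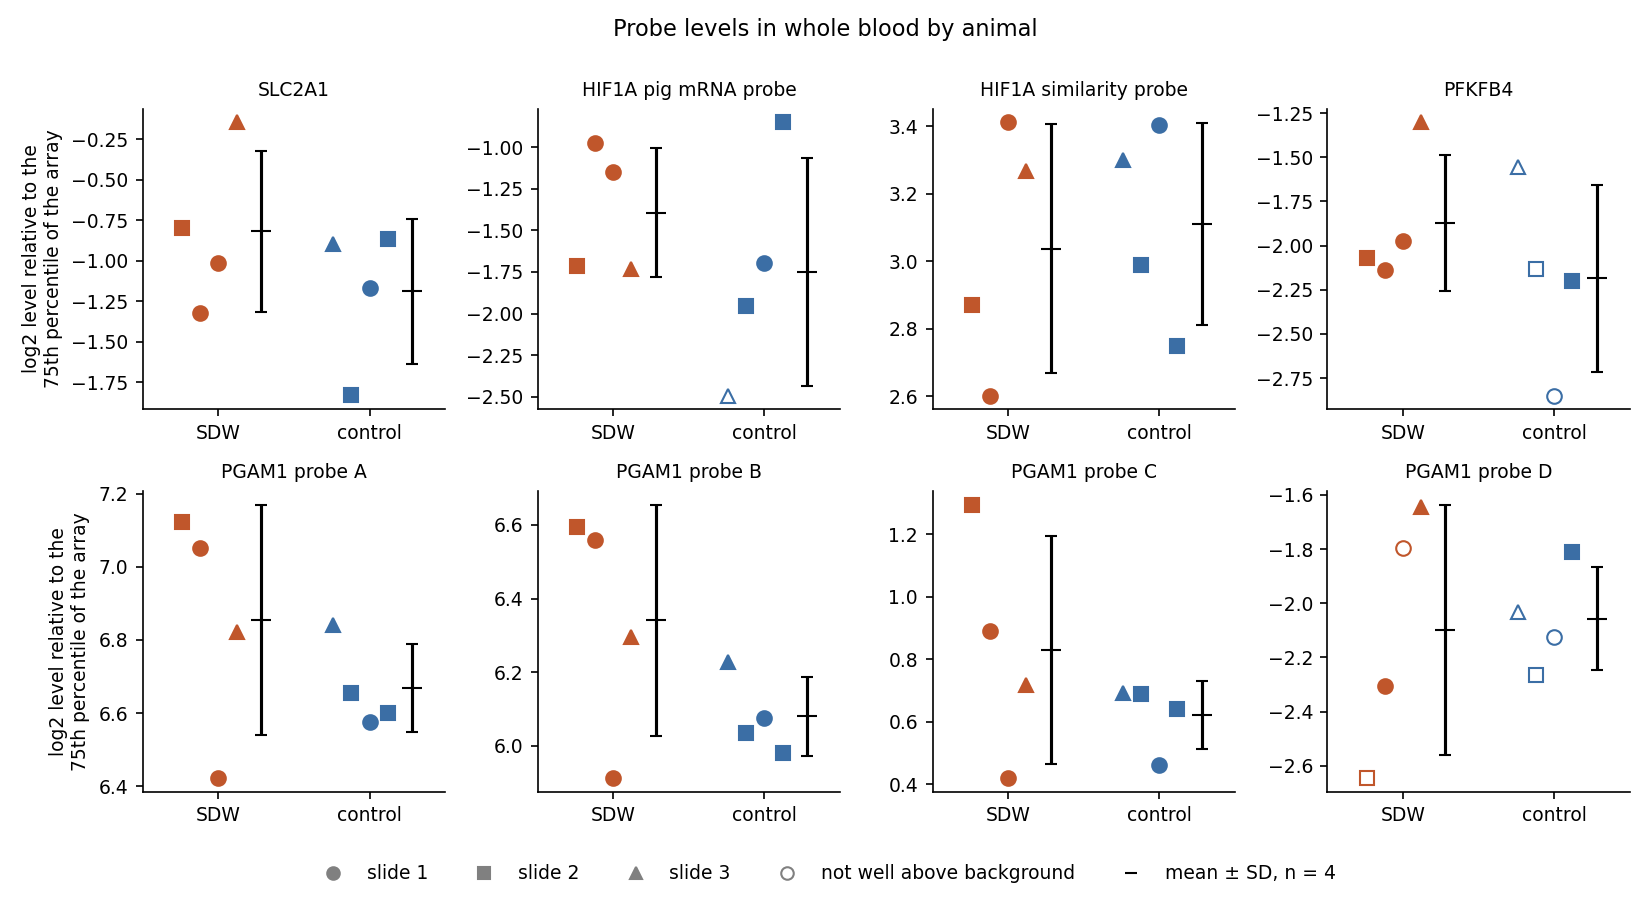
Levels of the 8 probes by animal, with SDW on the left and control on the right of each panel; the vertical axis is log2 of the signal relative to the array's 75th percentile, bars are mean ± SD (n = 4) and open symbols are not well above background. No panel separates the diets, and for PFKFB4 only 1 control symbol is filled against 4 SDW symbols. The open PFKFB4 symbols include that of control 1, whose level of -1.56 is above those of SDW 1, SDW 2 and SDW 3.

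PFKFB4, which sets fructose 2,6-bisphosphate, was near background. Its level was -2.07, -2.14, -1.97 and -1.30 in SDW 1 to 4, against -1.56, -2.13, -2.85 and -2.20 in control 1 to 4. The highest levels were those of SDW 4 and control 1, the slide 3 arrays, and the lowest was that of control 3. It was well above background in 4 of 4 SDW animals and in 1 of 4 controls, control 4, so it passed the filter largely through the SDW arrays. The flag did not follow the signal from array to array. The highest signal, 18.8 in control 1, was not called well above background, while 10.2 in SDW 3 was. The counts of 4 and 1 are therefore no measure of a difference in level. The control level rests on signals mostly not well above background.

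The PFKFB4 mean was -1.87 ± 0.39 on SDW and -2.18 ± 0.53 on the control diet (SD, n = 4 each). The difference was 0.31 (SE 0.32, log2), with an unadjusted p of 0.345 and an adjusted p of 1.00 by limma. It was 0.79, 0.10 and 0.25 within slides 1, 2 and 3, positive in all 3 slides. The same held for SLC2A1, by 0.0010 in slide 1, and for PGAM1 probes B and C, so for 4 of the 7 tested probes, and for 15.0% of all probes with a value in each slide, while 12.7% were negative in all 3. Without control 3 it was 0.09 and without control 1 it was 0.52, and without SDW 4 it was 0.12, so animals of either diet moved its size. With normexp the difference was 0.03. Processed signals were from 5.72 to 18.8, with a scanner error of 15.8% to 38.4% of the signal.

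The mean PFKFB4 level was -2.32, -2.13 and -1.43 on slides 1, 2 and 3, and that of SLC2A1 was -1.17, -1.17 and -0.52. Both genes were thus highest on the slide scanned on the second day. The HIF1A pig mRNA probe went the other way, with means of -1.27, -1.51 and -2.11. The part of slide and scan day in these levels was not tested.

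PGAM1, the glycolytic mutase, was read at high signal by probes A and B and at lower signal by probe C. Probe A was at 7.12, 7.05, 6.42 and 6.82 in SDW 1 to 4, against 6.84, 6.65, 6.58 and 6.60 in control 1 to 4. SDW 1 and SDW 2 were above every control and SDW 3 was below every control, so the SDW animals lay on either side of a narrow control group. The mean was 6.85 ± 0.32 on SDW and 6.67 ± 0.12 on the control diet (SD, n = 4 each). The difference of 0.19 (SE 0.23, 1.14-fold) had an unadjusted p of 0.436 and an adjusted p of 1.00 by limma, and 52.9% of tested probes had a smaller difference in size.

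Probe B was at 6.59, 6.56, 5.91 and 6.30 in SDW 1 to 4, against 6.23, 6.03, 6.07 and 5.98 in control 1 to 4. Here 3 of 4 SDW animals were above the highest control, and SDW 3 was again below the lowest. Its difference was 0.26 (SE 0.23, unadjusted p = 0.280, adjusted p = 1.00 by limma). Probe C was at 1.29, 0.89, 0.42 and 0.72 in SDW 1 to 4, against 0.69, 0.69, 0.46 and 0.64 in control 1 to 4. The SDW animals had the same order as with probes A and B, with 3 of 4 again above the highest control, and the difference was 0.21 (SE 0.24, unadjusted p = 0.403, adjusted p = 1.00 by limma).

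Across the 8 arrays, probe A had a Pearson correlation of 0.98 with probe B, which it overlaps, and of 0.91 with probe C, which has another sequence. For probes A, B and C the SD among SDW animals was 0.32, 0.32 and 0.36, against 0.12, 0.11 and 0.11 among controls; a difference in spread was not tested. The probe A difference was 0.16, 0.50 and -0.02 within slides 1, 2 and 3. For probe B it was 0.16, 0.59 and 0.068, and for probe C 0.19, 0.63 and 0.026. Without SDW 1 the differences of probes A, B and C were 0.10, 0.18 and 0.055, and without SDW 3 they were 0.33, 0.40 and 0.35. Probe D was well above background on 3 of 8 arrays and was not tested. Its difference was -0.04, and its correlation with probes A, B and C was -0.63, -0.62 and -0.72.

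**Figure D2:**
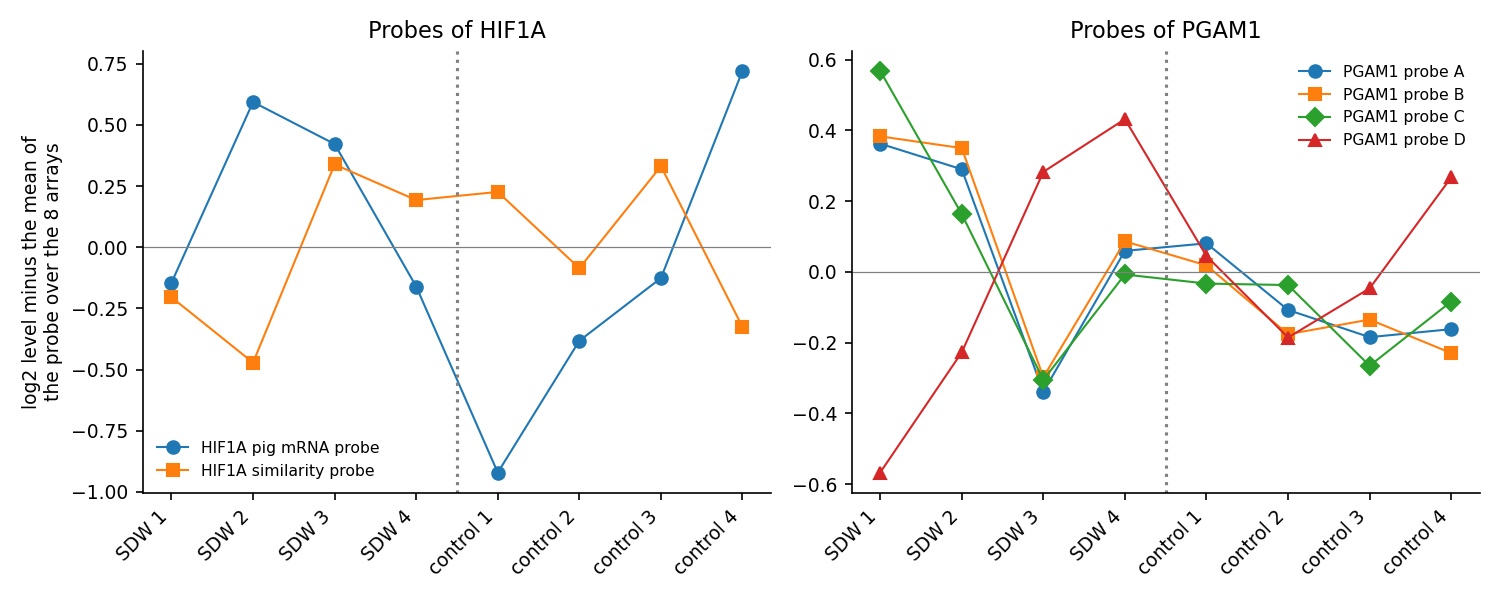
Deviation of each probe from its own mean over the 8 arrays, in log2 units on the vertical axis, for the HIF1A probes (left) and the PGAM1 probes (right), with SDW animals left of the dotted line. PGAM1 probes A, B and C follow each other through the animals, while PGAM1 probe D and the HIF1A pair do not.

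Of the 7 tested probes, 6 had a higher mean on SDW, where 52.9% of all tested probes did, and 0 passed the adjusted or the unadjusted threshold by limma. No probe had all SDW animals above all controls, which held for 0.599% of tested probes, or all below, which held for 0.386%. Since 3 of the 6 higher probes read PGAM1 and the arrays are shared, the probes are not separate pieces of evidence. PFKFB4, also among the 6, passed the filter largely through the SDW arrays, so its direction is tied to the filter. PGAM1 probe D, with a difference of -0.04, was left out by the filter. The count of 6 is therefore a description only.

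**Figure D3:**
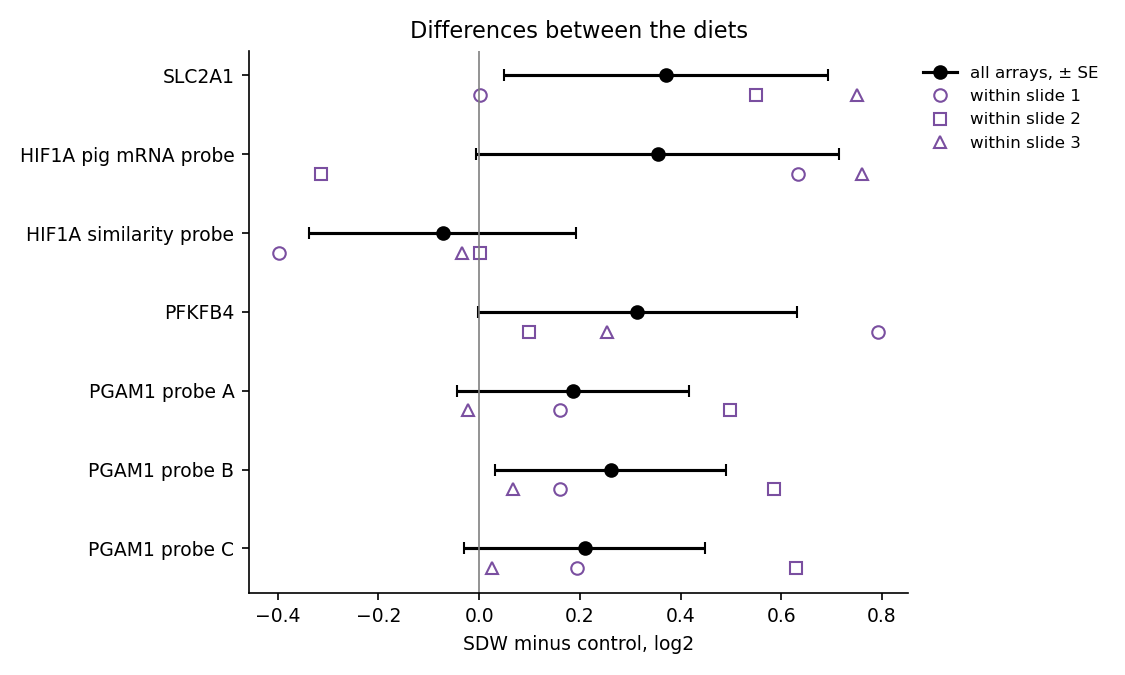
SDW minus control in log2 units on the horizontal axis for the 7 tested probes; filled points are the differences over all arrays with bars of ± 1 SE, and open symbols are differences within each slide. The bars reach 0 or come close to it for every probe, and the within-slide differences range from -0.40 to 0.79.

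The co-variation of the other 3 genes with HIF1A was examined over the 8 arrays, with exact two-sided permutation tests over all 40320 pairings. With the similarity probe, Pearson's r was 0.25 for SLC2A1 (p = 0.561), 0.12 for PFKFB4 (p = 0.778) and -0.55 for PGAM1 probe A (p = 0.156). Spearman's rho was 0.00, 0.31 and -0.62, with exact permutation p of 1.00, 0.462 and 0.115. With the pig mRNA probe, r was -0.01 for SLC2A1 (p = 0.980), -0.32 for PFKFB4 (p = 0.442) and -0.17 for PGAM1 (p = 0.680), again by exact permutation. Its rho was -0.05, -0.60 and -0.29 (exact p = 0.935, 0.132 and 0.501). None of these 6 relations passed, the smallest adjusted p being 0.933 for r and 0.397 for rho.

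The slides changed these relations. On deviations from the slide means, r with the similarity probe was -0.01 for SLC2A1, -0.29 for PFKFB4 and -0.69 for PGAM1 (exact permutation within slides, p = 0.972, 0.889 and 0.194). With the pig mRNA probe it was 0.61, 0.46 and -0.03 (exact p = 0.278, 0.222 and 0.931). Without slide 3, on the other 6 arrays, r was 0.01, -0.39 and -0.70 with the similarity probe and 0.45, 0.27 and -0.08 with the pig mRNA probe. None of these values passed, and a difference between the relations within slides and over all arrays was not tested. With normexp over all arrays, r with the pig mRNA probe was 0.53 for SLC2A1 and 0.48 for PFKFB4 (exact p = 0.176 and 0.232). Also with normexp, r between PFKFB4 and the similarity probe was 0.75 over all arrays (exact p = 0.0411, 0.123 after adjustment over 3 genes). On the levels without normexp, r between PFKFB4 and that probe was 0.68 without control 3, against 0.12 over all arrays.

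PGAM1 had negative r with the similarity probe under each of these settings. The processed signal of the similarity probe was from 384 to 544, while the subtracted 75th percentile ran from 39.9 to 73.1. The level of that probe was lowest in SDW 2, the array with the highest percentile. It was high in SDW 3, SDW 4 and control 3, the arrays with the lowest percentiles, and also in control 1, with 55.2. The part of array brightness in this relation was not tested. Without SDW 2 and control 4, the arrays farthest from the median of that probe, r was -0.70. After quantile normalization r was -0.82 and rho was -0.88 (exact p = 0.0136 and 0.00724). In the authors' deposited value table, whose columns share nearly the same quantiles, r was -0.83 and rho was -0.83 (exact p = 0.0118 and 0.0154). Adjusted over the 3 genes of that probe, these are 0.0407, 0.0217, 0.0354 and 0.0461, against 0.469 for r and 0.345 for rho with the 75th percentile. Adjusted over the 6 relations of both probes, they are 0.0814, 0.0435, 0.0708 and 0.0923, so that only the quantile-normalized rho stays below 0.05. The relation belongs to the probe that carries the name HIF1A by a 4% protein match. With the pig mRNA probe, r with PGAM1 was -0.17 with the 75th percentile, 0.22 after quantile normalization, 0.19 in the authors' deposited value table and 0.054 without control 1 and control 4, the arrays farthest from its median.

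**Figure D4:**
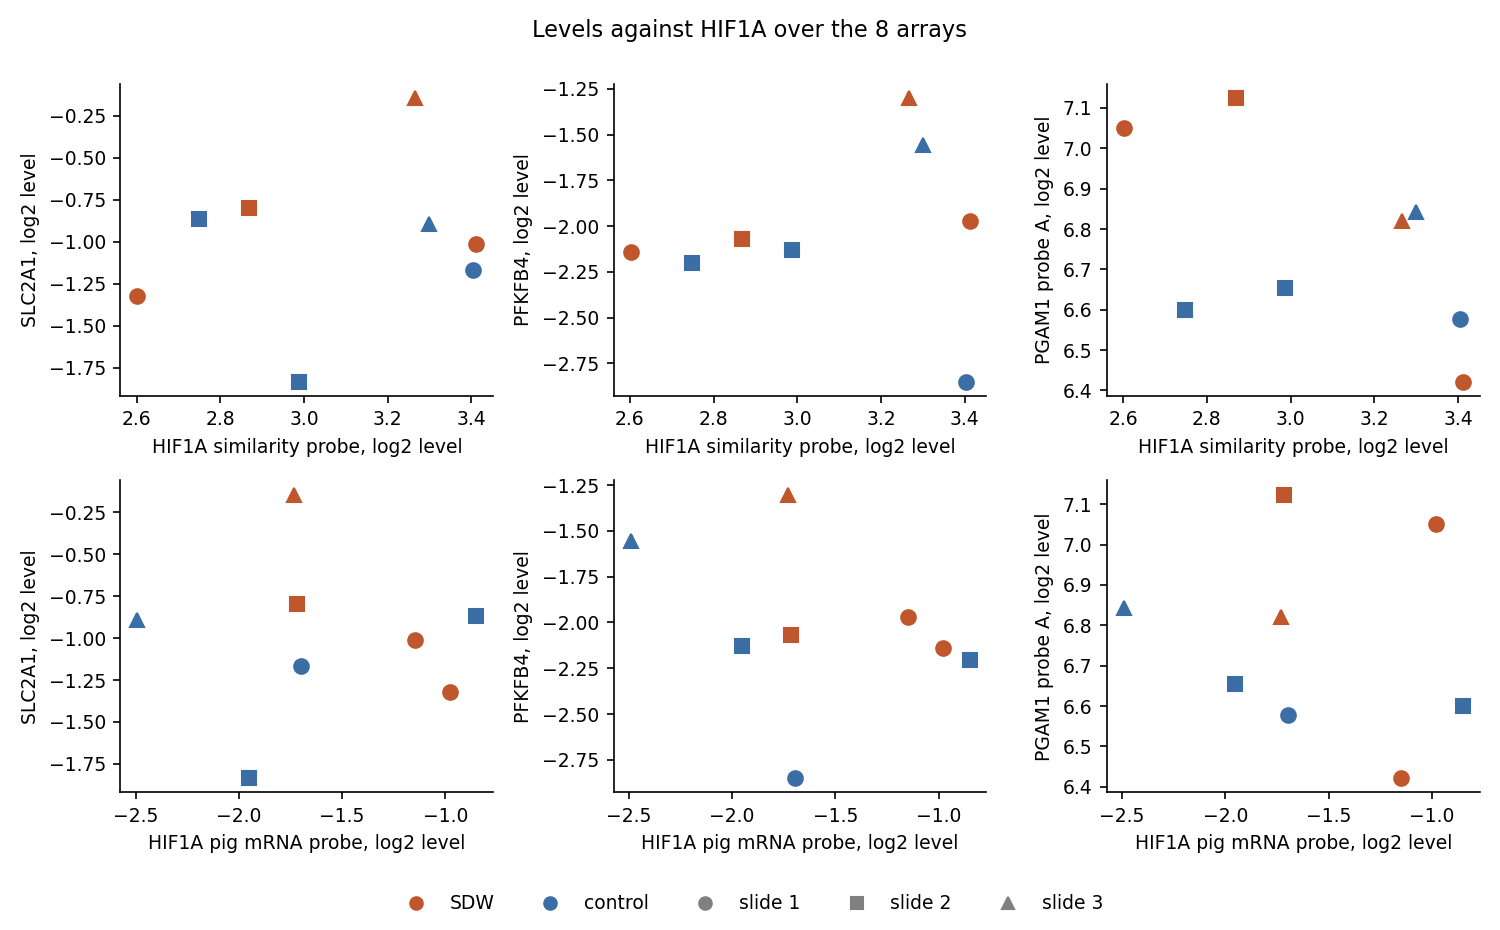
Log2 levels of SLC2A1, PFKFB4 and PGAM1 probe A on the vertical axes against the HIF1A similarity probe (top) and the HIF1A pig mRNA probe (bottom), 1 point per array, coloured by diet and shaped by slide. In the upper right panel the points run downwards with an r of -0.55, and in the middle panels the slide 3 arrays are the highest.

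Among the other members, SLC2A1 and PFKFB4 had an r of 0.58 and a rho of 0.50 (exact p = 0.110 and 0.216). On slide deviations r was 0.18 and without slide 3 it was 0.05. SLC2A1 with PGAM1 had an r of 0.17 and PFKFB4 with PGAM1 an r of 0.26 (exact p = 0.698 and 0.539). The smallest adjusted p over these 3 relations was 0.330.

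The genes most like each member over the 8 arrays were read from 1092 other named genes, as a description with no test. The part of array brightness in these correlations was not tested either. The HIF1A similarity probe was closest to CCL19, a lymphoid chemokine, with an r of 0.94. FTH1, the heavy chain of the iron store ferritin, followed at 0.93, and HAMP, the iron hormone hepcidin, at 0.91. TPM2, a tropomyosin, had an r of 0.91 and CXCL16, a membrane-bound chemokine, 0.91. Its lowest correlations were with EIF4E, the cap-binding translation factor, at -0.94, YIPF5 at -0.89, CALU at -0.88, SAR1B at -0.87 and RAB27A at -0.84.

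The HIF1A pig mRNA probe had none of these 10 genes among its own extremes. It was highest with GPNMB at 0.88, the small GTPase RAB1A at 0.85, catalase (CAT) at 0.84, the ubiquitin-conjugating enzyme UBE2D3 at 0.83 and the dehydrogenase subunit DLD at 0.83. It was lowest with NFKBIA, the inhibitor of NF-kB, at -0.95, and with the thrombin receptor F2R at -0.93, POMGNT1 at -0.88, FOXN3 at -0.87 and the cytokine TNF at -0.87. SLC2A1 was closest to NPY (0.82), SLC22A7 (0.80) and the adenylate kinase AK4 (0.78). PFKFB4 was closest to SHAS2 (0.99), the phosphatase subunit PPP2R5A (0.94) and IGFBP2 (0.90). SHAS2 and F2R were well above background on only 6 arrays, and GPNMB, DLD, SLC22A7 and AK4 on 7. PGAM1 was closest to VDAC1, the channel of the outer mitochondrial membrane (0.90), PPP2R2A (0.90) and MAN1A1 (0.88).

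The genes around the members were read from 8 lists of the pathway, in which 42 genes reported here had a tested probe. In these lists a probe means a named probe, of which there were 2993 among the 43603 on the array. The array may hold further listed genes under probes not named here. Of these 42 genes, 27 had a higher mean on SDW and 15 a lower one, with a median difference of 0.04 against 0.02 over all tested probes. None passed the adjusted or the unadjusted threshold by limma in any list, and no gene had diets that did not overlap. The values given below are therefore levels and differences of genes that did not pass. Leaving out a single animal moved the difference of 21 of the 22 genes named from the lists by over 1.5 times, DLAT being the exception.

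Among transporters and uptake genes, 6 of the 9 with a probe were tested, of which 3 had a higher mean on SDW and 3 a lower one. Without slide 3, 4 were higher and 2 lower. SLC2A11, a fructose and glucose carrier, was at -0.38, 1.38, 2.90 and 0.98 in SDW 1 to 4, against 0.42, 1.39, 3.22 and 2.23 in control 1 to 4, a difference of -0.59 (SE 0.73, unadjusted p = 0.434, adjusted p = 1.00 by limma). SDW 1 and control 1 were lowest and SDW 3 and control 3 highest, and the difference was -0.059 without SDW 1, -1.15 without SDW 3 and -1.03 with slide as a fixed block. TXNIP, which holds back glucose uptake, differed by -0.15 and SLC2A10 by -0.27, with SLC2A10 high on both slide 3 arrays (2.86 in SDW 4 and 3.02 in control 1). Probes of SLC2A2, SLC2A4 and SLC5A1, the carriers of liver, muscle and intestine, were not well above background on enough arrays.

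Among glycolytic enzymes, 7 of the 14 with a probe were tested, PGAM1 included, with 5 higher and 2 lower on SDW and a median of 0.06. Without slide 3 all 7 were higher, with a median of 0.11. PGK1, the phosphoglycerate kinase one step before PGAM1, was at 5.48, 5.41, 4.48 and 4.33 in SDW 1 to 4, against 4.37, 4.92, 4.88 and 4.38 in control 1 to 4. As for PGAM1 probe A, SDW 1 and SDW 2 were above every control, but PGK1 was lowest in SDW 4 and PGAM1 in SDW 3. The PGK1 difference was 0.29 (SE 0.32, unadjusted p = 0.397, adjusted p = 1.00 by limma). It was 0.10 without SDW 1 and 0.48 without SDW 4. LDHA, which turns pyruvate into lactate, differed by 0.10 with 4.61 in SDW 2, the highest, and 3.19 in control 1, the lowest. The muscle phosphofructokinase PFKM was at 0.99, -0.30, -3.30 and -2.64 in SDW 1 to 4, against -1.34, -0.08, -1.68 and -0.95 in control 1 to 4, and was well above background in 2 SDW animals and 4 controls.

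PGAM1 was then set against the other 6 tested enzymes, a look made after their values were seen. Over all arrays r was 0.64 with PGK1, 0.67 with PFKM, 0.31 with LDHB, 0.25 with LDHA, 0.14 with HKDC1 and -0.01 with TPI1. The exact permutation p was 0.0931 for PGK1 and 0.0670 for PFKM, and 0.279 for both after adjustment over the 6 relations. Spearman's rho was 0.36 for PGK1 and 0.67 for PFKM (exact p = 0.389 and 0.0831). On slide deviations r was 0.94 with PGK1 and 0.88 with PFKM, each with an exact p of 0.0139, the smallest that 2 arrays of 1 slide and 3 of each other slide allow, and 0.0417 after adjustment. It was 0.76 with LDHA, 0.76 with LDHB, 0.054 with HKDC1 and -0.70 with TPI1, which did not pass (exact p = 0.167, 0.0833, 0.736 and 0.139). The adjustment covers the 6 relations but not the choice to look after the values were seen. PFKM was well above background in only 2 of 4 SDW animals, so its r rests partly on dim signals. Without slide 3, r was 0.92 with PGK1 and 0.83 with PFKM. Without SDW 1 and SDW 3, the arrays with the highest and the lowest PGAM1, r on levels over all slides was 0.39 with PGK1 and 0.11 with PFKM, over a range of PGAM1 that this choice narrows.

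Of the genes that set fructose 2,6-bisphosphate or run the reverse route, 2 of the 7 with a probe were tested. These were PFKFB4 and FBP1, the fructose-bisphosphatase of gluconeogenesis. FBP1 was at 4.15, 4.51, 3.89 and 4.34 in SDW 1 to 4, against 4.05, 3.74, 4.23 and 3.38 in control 1 to 4, a difference of 0.37 (SE 0.26, unadjusted p = 0.179, adjusted p = 1.00 by limma). The diets overlapped, with SDW 3 below control 1 and control 3. Among pyruvate and lactate genes, 4 of the 10 with a probe were tested and all 4 had a higher mean on SDW, against 3 without slide 3. MPC1, a subunit of the mitochondrial pyruvate carrier, differed by 0.31 with control 1 lowest at 4.07, and by 0.02 without that animal. DLAT, of the pyruvate dehydrogenase complex, differed by 0.29 and the lactate carrier gene SLC16A1 by 0.09. SLC16A1 was well above background in 3 SDW animals and 2 controls.

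Of the genes that act on HIF1A or with it, 7 of the 11 with a probe were tested, HIF1A included. Of these, 3 were higher and 4 lower on SDW, and 2 were higher and 5 lower without slide 3. HIF1A is counted as lower here from the similarity probe. Its pig mRNA probe was higher on SDW, by 0.35 and by 0.22 without slide 3, so the majority direction over all arrays rests on the choice of probe. EGLN3, a prolyl hydroxylase that marks the HIF1A protein for breakdown, was at 2.39, 1.76, 2.29 and 1.67 in SDW 1 to 4, against 1.99, 2.26, 1.44 and 1.77 in control 1 to 4, a difference of 0.16 (SE 0.27, unadjusted p = 0.563, adjusted p = 1.00 by limma). The chaperone HSP90AB1 differed by -0.18 and RACK1, which promotes HIF1A breakdown, by -0.10. Among targets of HIF outside glycolysis, 6 of the 11 with a probe were tested, with 3 higher and 3 lower on SDW. HMOX1, the heme oxygenase, differed by 0.57 (SE 0.43), PLIN2, a lipid droplet protein, by -0.41 (SE 0.33) and EDN1, the vasoconstrictor peptide endothelin-1, by -0.59 (SE 0.69), each with an adjusted p of 1.00 by limma. These lie on both sides of 0, with a list median of -0.15, and without slide 3 the median was 0.18. EDN1 was highest in control 1 at 0.37, and without that animal its difference was 0.0066. EDN1 was well above background in only 2 SDW animals and 3 controls. The HMOX1 difference was -0.30, 1.79 and -0.14 within slides 1, 2 and 3.

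In the pentose phosphate pathway, which branches off glycolysis, 4 of 4 genes were tested and all 4 had a higher mean on SDW, with a median of 0.11. TKT differed by 0.23, RPIA by 0.18 and TALDO1 by 0.04, where the SE of each was above 0.20. Without slide 3 all 4 were again higher. Among glycogen genes, 6 of 7 were tested, with 3 higher and 3 lower, and with 1 higher and 5 lower without slide 3. PYGM, the muscle glycogen phosphorylase, was at 2.13, 2.39, 3.74 and 2.53 in SDW 1 to 4, against 2.63, 3.47, 3.37 and 4.04 in control 1 to 4. SDW 1, SDW 2 and SDW 4 were below every control and SDW 3 was above all but control 4, and the difference was -0.68 (SE 0.41, unadjusted p = 0.123, adjusted p = 1.00 by limma). GYG1, the glycogenin primer, differed by -0.17 and PGM1 by 0.19.

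**Figure D5:**
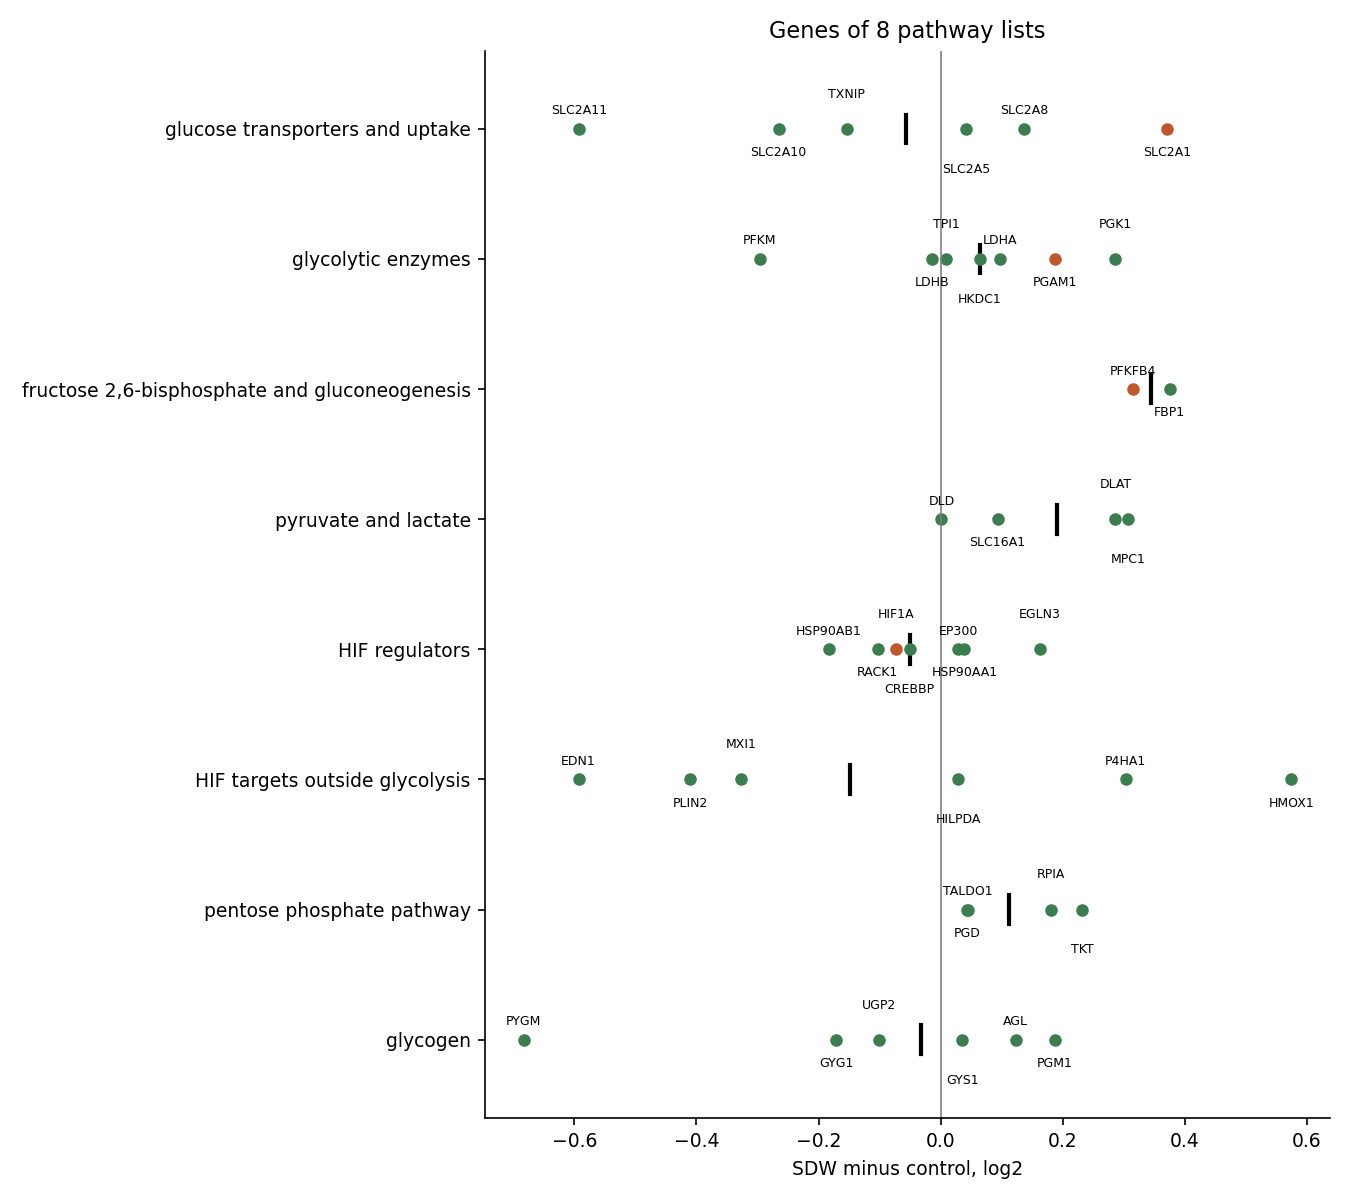
SDW minus control in log2 units on the horizontal axis for each gene with a tested probe in 8 pathway lists; vertical bars are list medians and SLC2A1, PGAM1 (probe A), PFKFB4 and HIF1A (similarity probe) are drawn in orange. Most genes lie between -0.4 and 0.4 and the list medians run from -0.15 for HIF targets to 0.34 for the pair PFKFB4 and FBP1.

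Markers of blood cells were read beside these values, since in whole blood fewer cells of a type and less RNA per cell cannot be told apart. All 6 tested neutrophil markers had a lower mean on SDW, with a median difference of -0.59 and 0 passing either threshold. Their mean level, centred on the 8 arrays, was between -0.60 and 0.13 in SDW animals and between -0.26 and 0.93 in controls, with control 1 highest. Of the 5 eosinophil and basophil markers 4 were higher on SDW (median 0.53), as were 4 of the 5 platelet markers (median 0.13), 4 of 6 monocyte markers (median 0.06) and 3 of 6 T cell markers (median -0.09). Both tested markers of NK and cytotoxic cells had a lower mean on SDW. Among all these, CCR2, a monocyte receptor, and GNLY, of cytotoxic cells, had unadjusted p below 0.05 by limma, as did 1.45% of all tested probes. None passed after adjustment. CCR2 was higher in every SDW animal than in any control, by 0.88 on average, an order that held for 0.599% of all tested probes. Both genes were named after their values were seen. The erythroid list had a named probe for 1 gene of 15, BPGM, which was not well above background on enough arrays. Only 2993 of the array's 43603 probes were named here. The list thus gave no value for red cell precursors, which does not mean that the array lacks probes for them. The part of cell composition in the levels of the 4 genes was not tested.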

How the data were processed

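The members and gene lists were chosen with earlier results of these data known. The authors deposited linear spot intensities for each array. Agilent Feature Extraction made them, in version 10.1.1.1 according to the file headers, whereas the submitters' processing notes name 9.5.3.1. Background had been subtracted within each array and nothing was scaled between arrays, per the file headers. The authors' value table also holds intensities, made by a normalization not given in the sources used here; 7 of its 8 columns match another replicate of the same diet, so replicate names follow the scanner files. Outlier-flagged and control spots were dropped, spots of a probe averaged, and log2 values taken minus the array's 75th percentile. Probes well above background on at least 4 of 8 arrays, whatever the diet, were tested two-sided with limma 3.58.1 (R 4.3.3), adjusted by Benjamini-Hochberg over 17352 probes. A gene was read from its tested probe with the highest mean. Correlations used exact permutations (Python 3.11.15). The fit was tested on simulated data. Of the array's probes, 2993 were named (1922 genes), mainly through the RefSeq pig gene table. Of the listed genes, 2 are not reported here. Named genes were every member, the 3 other genes of each list with the smallest unadjusted p, the 5 highest and 5 lowest correlations with each HIF1A probe and the 3 highest for the rest; cell markers with unadjusted p below 0.05, the enzymes set against PGAM1, the low probes of the transporter list and BPGM were named after their values were seen. Same-numbered animals of the 2 diets correlated at -0.17, 0.11, 0.33 and -0.38 in their deviations, so numbers are not taken to pair them. Alternatives covered background correction, scaling, filter, slide, weights, the value table and leaving out each animal.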

Additional observations from a re-analysis of the deposited data

Results flagged for a closer look

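In 60 groups of 4 animals, 3 had a lowest or highest animal far from the others of its diet by Dixon's test; chance marks about 1 in 20 groups. Each concerns a gene next to the members rather than a member. SLC2A10 was at 3.02 in control 1, above the other controls. HSP90AB1 was at 3.04 in SDW 1, below the other SDW animals. RACK1 was at 9.04 in SDW 4, below the other SDW animals. Of the 3, the values of SLC2A10 and RACK1 come from the slide scanned on the second day.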

How the results depend on the processing

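The number of animals limits precision, as do signals near background for SLC2A1, PFKFB4 and the HIF1A pig mRNA probe. No member difference passed under any alternative run. Calls stayed at 0 except for 1 probe, no member, without slide 3 (adjusted p = 2.78e-05 by limma); probes at unadjusted p below 0.05 numbered 251, against 162 with normexp, 165 with all 8 arrays above background, 823 unfiltered, 1143 and 632 with slide as a fixed and a random block, 542 without slide 3, 399 with array weights and 179 to 517 without 1 animal. The filter on all 8 arrays left no value for PFKFB4 or the HIF1A pig mRNA probe. Read from that probe, the HIF1A difference was 0.35. Below, HIF1A without a probe name stands for the similarity probe. With the replicate number as a block, 0 probes passed, 239 had unadjusted p below 0.05, and SLC2A1, HIF1A, PFKFB4 and PGAM1 kept 0.37, -0.07, 0.31 and 0.19; it changed no call. The correlation of SLC2A1 with HIF1A was -0.0054 on slide deviations and -0.012 with the pig mRNA probe; that of PFKFB4 was -0.29 on slide deviations, -0.39 without slide 3, -0.046 without the 2 farthest arrays and -0.32 with the pig mRNA probe; that of PGAM1 was -0.82 after quantile normalization and -0.83 in the value table. Other differences that turned were TXNIP (0.012 without slide 3), EDN1 (0.24 without slide 3), PFKM (0.18 with normexp, 0.15 with slide as a fixed block, 0.035 without slide 3), SLC16A1 (-0.085 with normexp, -0.021 with slide as a fixed block) and TALDO1 (-0.0019 in the value table, -0.0053 with slide as a fixed block). Without 1 animal, ranges of named results that crossed 0 were HIF1A -0.20 to 0.072, PFKFB4 correlation -0.052 to 0.68, LDHA -0.13 to 0.34, PFKM -1.06 to 0.37, EDN1 -0.97 to 0.0066, RACK1 -0.18 to 0.066, SLC16A1 -0.090 to 0.22, SLC2A10 -0.78 to 0.21 and TALDO1 -0.11 to 0.19. List medians that did so were those of glycolytic enzymes (-0.0043 to 0.18), the pentose phosphate pathway (-0.023 to 0.22), transporters (-0.11 to 0.17), glycogen (-0.12 to 0.098), HIF regulators (-0.15 to 0.072) and HIF targets (-0.28 to 0.067). With the pig mRNA probe, the correlation of PGAM1 turned to 0.22 after quantile normalization and 0.19 in the value table. The causes were not tested.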
